A study of Mus musculus with 12 samples.

Results

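The 4 GFP control libraries describe young mouse hepatocytes with no added YAP activity. They were taken by their labels, 4 of the 12 libraries of a series on YAP activation and Sox9 in hepatocytes. All 16116 genes of the deposited table were read in them. In 2 of the 4 libraries, named here the wild type controls 1 and 2, wild type mice received AAV2/8-TBG-GFP and cells were sorted 3 weeks later. In the other 2, the floxed controls 1 and 2, mice with Mst1 fl/fl, Mst2 fl/fl and the reporter allele ROSA26-lsl-TdTomato received the same virus without Cre, and cells were sorted 4 weeks later. Mice of every group were injected at 3 weeks of age by the retro-orbital route. TBG is a promoter active in hepatocytes, so the marker protein depends on a viral transgene in that cell type. Sorting took fluorescent cells and left out those with Epcam, a bile duct marker, or CD45, a leukocyte marker.

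The other 8 libraries came from 4 groups of 2 with active YAP. The YAP groups were Sox9 fl/+ or Sox9 fl/fl mice given AAV2/8-TBG-Cre with a virus for YAP S127A and GFP. The Mst groups were mice with Mst1 fl/fl, Mst2 fl/fl and the same reporter allele, either Sox9 fl/+ or Sox9 fl/fl, given AAV2/8-TBG-Cre. No control mouse received Cre, so activated and control groups differ in Cre, Sox9 alleles and YAP together. Whether the 2 libraries in each group are from different mice is not stated in the labels. SDs and p-values therefore measure only how far the deposited values of the libraries differ from each other, and that spread may be technical. It may also have been rescaled before deposit, as described in the part on processing.

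Hepatocytes make most of the proteins of blood plasma, among them albumin, apolipoproteins, clotting factors and complement. They also keep blood glucose steady, turn ammonia into urea, make bile acids and chemically modify drugs. Many of these tasks rest on liver forms of enzymes whose relatives serve muscle, brain or dividing cells. Enzymes are also zoned along the liver lobule, from the portal vein to the central vein.

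Values are given as log2 CPM (reads of a gene after scaling to library size), from a panel that reads 1 amplicon per gene. Levels of different genes therefore do not scale with transcript length, but they also hold the efficiency of each amplicon, for which the sources used here give no value. A level of log2 CPM 1 or more in all 4 libraries is called detected, and a level under 0 in all 4 is called near zero. Where 4 values are listed, the order is wild type control 1, wild type control 2, floxed control 1 and floxed control 2, and ± is the SD of these 4 libraries. In the deposited table both control groups have the same mean for nearly every gene (98.9% of 10681 kept genes within 0.05). For that reason the control groups are described together and not compared, and the SD reflects mainly the difference between the 2 libraries of a group.

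The promoter windows of the albumin family are shown because its members, which share an ancestral gene and lie on chromosome 5, differed widely in level. Albumin (Alb), the main plasma carrier, stood at 15.21 ± 0.29 log2 CPM, rank 1 of 16116. The vitamin D carrier Gc stood at 13.08 ± 0.20, the vitamin E carrier afamin (Afm) at 7.68 ± 0.23 and the fetal carrier alpha-fetoprotein (Afp) at 2.50 ± 0.30. The sequences are RefSeq windows on GRCm38.p6 around each annotated start, written along the strand of the gene, and capitals mark matches to GTTAATNAT or TATAAA. GTTAATNAT was chosen after these sequences had been seen. Alb lies at chr5:90460620-90460919 on the plus strand, Gc at chr5:89457849-89458148 on the minus strand, Afm at chr5:90518699-90518998 on the plus strand and Afp at chr5:90490464-90490763 on the plus strand.
Alb: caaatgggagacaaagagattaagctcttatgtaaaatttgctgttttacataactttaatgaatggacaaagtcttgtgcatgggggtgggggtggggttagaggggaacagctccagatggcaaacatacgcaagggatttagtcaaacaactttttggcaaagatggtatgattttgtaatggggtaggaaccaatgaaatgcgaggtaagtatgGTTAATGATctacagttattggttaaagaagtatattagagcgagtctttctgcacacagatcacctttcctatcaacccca
Gc: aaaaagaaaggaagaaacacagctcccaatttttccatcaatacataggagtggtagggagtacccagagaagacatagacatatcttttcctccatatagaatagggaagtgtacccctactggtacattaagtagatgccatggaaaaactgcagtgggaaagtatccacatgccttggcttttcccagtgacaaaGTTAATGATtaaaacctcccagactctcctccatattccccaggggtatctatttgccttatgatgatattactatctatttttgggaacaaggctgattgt
Afm: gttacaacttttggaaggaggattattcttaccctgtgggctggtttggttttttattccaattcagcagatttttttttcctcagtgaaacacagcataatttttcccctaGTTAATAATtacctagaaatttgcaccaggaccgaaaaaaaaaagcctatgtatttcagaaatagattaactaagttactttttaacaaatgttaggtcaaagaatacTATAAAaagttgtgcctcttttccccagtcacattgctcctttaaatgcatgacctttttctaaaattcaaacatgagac
Afp: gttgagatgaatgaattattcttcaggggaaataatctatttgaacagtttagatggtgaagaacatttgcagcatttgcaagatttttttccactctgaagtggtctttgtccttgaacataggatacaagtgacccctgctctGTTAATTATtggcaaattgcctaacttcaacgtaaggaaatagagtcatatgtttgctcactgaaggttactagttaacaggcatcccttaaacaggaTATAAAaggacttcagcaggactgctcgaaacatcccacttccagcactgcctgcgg
All 4 windows held GTTAATNAT, searched on both strands, while 0.801% of the 32851 windows of the whole RefSeq table did. TATAAA, also searched on both strands, was found in Afm and Afp, and in 13.6% of all windows. GTTAATNAT was thus present in the highest and in the lowest member alike, and TATAAA in the members at 7.68 and 2.50 log2 CPM. A match describes letters and is not a measured binding site.

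The transcriptome of the controls was led by secreted plasma proteins. Alb was the highest gene in every library at 14.86, 15.53, 15.35 and 15.10 log2 CPM, and held 4.28% ± 0.76 of the summed linear values. The complement protein C3 was the second in every library at 14.02, 14.25, 13.81 and 14.46. Below these the order changed between libraries. Ahsg (fetuin-A, an inhibitor of mineral deposition) stood at 13.35, 13.29, 13.76 and 12.89, and ranged from rank 3 to rank 7. Apoe, a ligand for lipoprotein uptake, stood at 13.49, 12.90, 13.18 and 13.18, and ranged from rank 3 to rank 7 as well. Gc stood at 12.82, 13.30, 13.06 and 13.12. The libraries of Ahsg, Apoe and Gc overlapped, so these neighbours in the order did not differ beyond their spread. All 5 hepatocyte markers were among the 7 highest genes of the mean, with the selenium carrier Sepp1 at 13.27 ± 0.27 and the lipoprotein core protein Apob at 13.08 ± 0.27 between them. These markers were chosen with earlier results of these data known, so their places are a description and not a test.

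**Figure D1:**
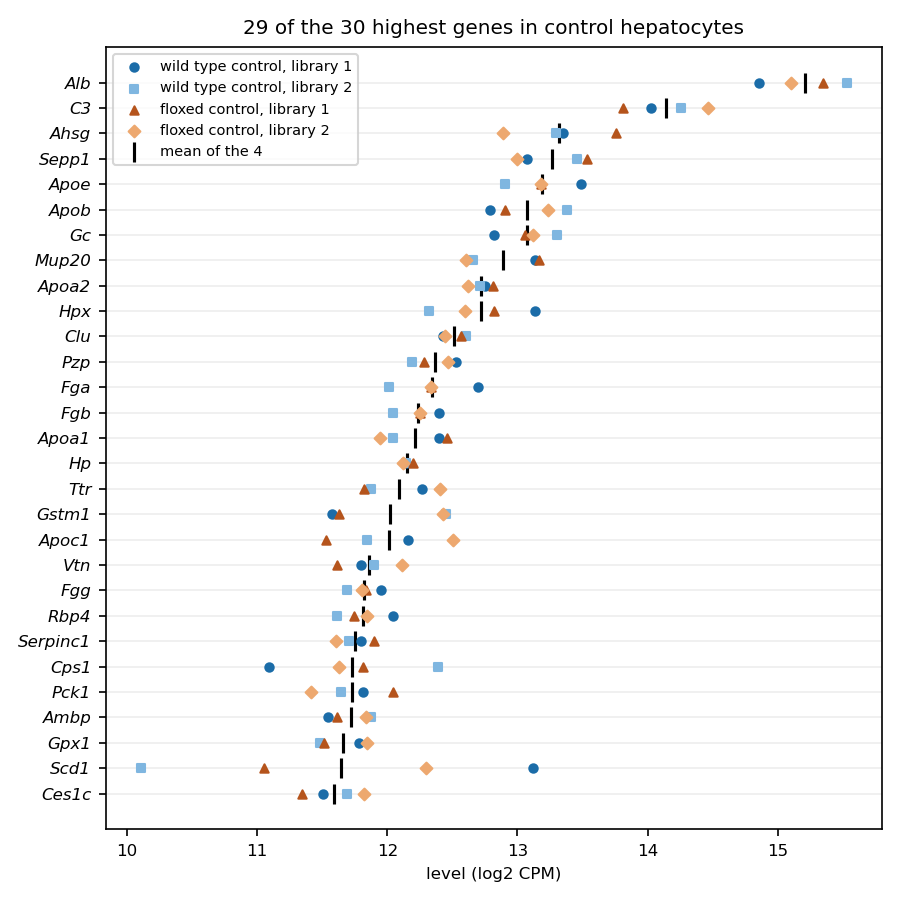
Levels of 29 of the 30 genes with the highest mean in the 4 control libraries, in log2 CPM on the x axis, with a symbol for each library and a bar at their mean. Alb and C3 keep their places in all 4, while Scd1 spans 10.11 to 13.12.

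The 10 highest genes all belonged to the lists of plasma proteins, as did 23 of the 30 highest and 42 of the 100 highest. The lists were chosen with earlier results of these data known, so these counts are a description and not a test. Together the 99 measured genes of these lists (carriers and protease inhibitors, apolipoproteins, clotting, complement and major urinary proteins) held 26.4% ± 0.11 of the linear sum. The 10 highest genes held 13.2% to 14.7%, the 30 highest 23.4% ± 0.28 and the 100 highest 36.6% ± 0.17. It took 36 genes to reach 25% of the sum, 292 to reach 50%, 1555 to reach 75% and 3917 to reach 90%. Of the 100 genes with the highest mean, 80 were among the 100 highest of each library.

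**Figure D2:**
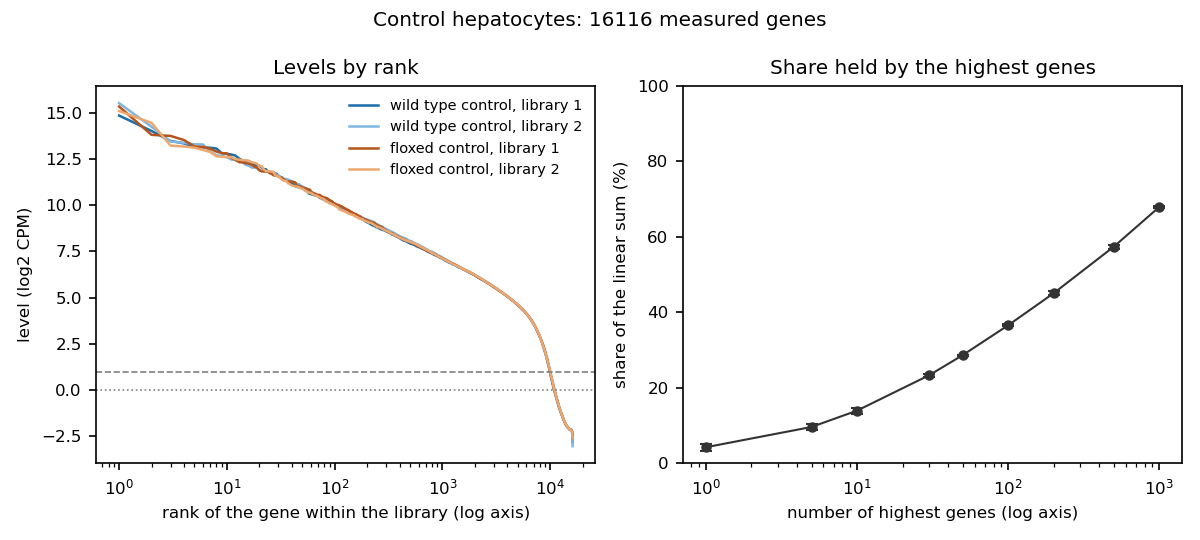
Left, the level of each gene in log2 CPM against its rank in its library (log axis), with a line for each of the 4 control libraries, a dashed line at log2 CPM 1 and a dotted line at 0. Right, the mean share of the linear sum held by the highest genes, with bars from the lowest to the highest library. The lines of the 4 libraries overlie each other beyond the first ranks, and the 100 highest genes hold 36.6%.

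At the other end, 9659 genes (59.9%) were detected, 4813 (29.9%) were near zero and 1644 (10.2%) lay between. The lowest mean was -2.15 log2 CPM, or 0.225 CPM, and 633 genes had a mean within 0.01 of it, so the lowest values carry no order. Only 20 genes had a mean of 12 or more and 102 of 10 or more. The linear sums of the 4 libraries were 879620 to 920020 CPM, and each library had 9919 to 10005 genes at log2 CPM 1 or more. The sources used here give no read depth.

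Among carriers and protease inhibitors, 33 of 34 measured genes were detected and 19 were among the 100 highest. They held 13.1% of the sum, from 12.5% to 13.8% across libraries. Hemopexin (Hpx), which binds free heme, stood at 13.13, 12.32, 12.82 and 12.60 log2 CPM. Haptoglobin (Hp), which binds free hemoglobin, was among the steadiest at 12.15, 12.15, 12.20 and 12.12. The broad protease inhibitor Pzp stood at 12.37 ± 0.16, while its relative A2m was near zero at -1.20 in the mean.

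All 12 measured apolipoproteins were detected, 9 of them among the 100 highest, and together they held 5.25% of the sum. Apoa2 and Apoa1, the main proteins of high-density lipoprotein, stood at 12.72 ± 0.08 and 12.21 ± 0.26. The lowest member was Apom, a carrier of sphingosine phosphate, at 8.58.

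Clotting genes held 3.91% of the sum, with 23 of 25 detected. The 3 chains of fibrinogen stood close together, Fga at 12.34 ± 0.28, Fgb at 12.24 ± 0.15 and Fgg at 11.82 ± 0.11. Antithrombin (Serpinc1) followed at 11.75 ± 0.13, plasminogen (Plg) at 11.37 ± 0.28 and prothrombin (F2) at 11.31 ± 0.15. The members made chiefly by other cells were low, with von Willebrand factor (Vwf) of endothelial cells at 0.35 and F13a1, the factor XIII subunit of platelets and macrophages, at -1.25. Complement genes held 3.14%, with 19 of 22 detected, and C3 made up most of it. The terminal component Hc (complement C5) stood at 10.28, and the fat cell protease Cfd (adipsin) was near zero at -1.87.

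Of the 100 highest genes, 10 lay in 4 runs of neighbours in the order of the 16034 measured and placed genes, which skips genes that were not measured. These were Fgg, Fga and Fgb on chromosome 3, Mup20 and Mup3 on chromosome 4, Apoc1 and Apoe on chromosome 7, and Apoa1, Apoc3 and Apoa5 on chromosome 9. Major urinary proteins, pheromone carriers secreted into blood and urine, were read in 6 members only. Mup20 stood at 12.89 ± 0.30, Mup3 at 10.39 ± 0.21 and Mup5 at -0.88. Members of this family are near-identical, so their separate levels are uncertain.

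Families of enzymes, carriers, receptors, structural proteins and transcription factors were examined for a leading member. Of 79 families with at least 2 measured members, 78 had a leader that was detected. The leader was the same gene in all 4 libraries in 70 of these, and in 51 it was ahead of the second member by log2 1 or more in all 4. In 32 families the leader held at least 90% of the linear sum of the family in every library. In 54 of the 78 all listed members were measured, and in 36 of those the leader kept the margin. In other families a member is not analysed here, as for the enolases (without Eno1) and the ADP/ATP carriers (without Slc25a5), and their leaders Eno3 (1.93) and Slc25a4 (2.64) are leaders among the measured members only.

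In several steps of glucose metabolism the liver form led. The glucose transporter Slc2a2 (GLUT2) stood at 9.01 ± 0.12, against 5.80 for the urate transporter Slc2a9. In phosphofructokinase, which commits sugar to glycolysis, the liver form Pfkl stood at 5.04 and the muscle form Pfkm at 4.29, with a gap of 0.25 to 1.23, so the liver form had no clear margin. Pyruvate kinase of liver (Pklr) stood at 7.83, 8.28, 7.79 and 8.35, and the form of dividing cells (Pkm) at 0.19, 2.59, 1.22 and 1.56. Every library thus had Pklr ahead, with a gap of 5.69 to 7.64, although Pkm itself varied more than any other member named in this paragraph. Ldha stood at 9.59 ± 0.17 while Ldhb, the heart form of lactate dehydrogenase, was near zero at -0.48 ± 0.23.

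The enzymes that make new glucose were high. The cytosolic phosphoenolpyruvate carboxykinase Pck1 stood at 11.82, 11.64, 12.04 and 11.42, and the mitochondrial form Pck2 at 3.23 in the mean. Fbp1 stood at 9.87 ± 0.22 and the muscle form Fbp2 at -0.96. The glucose-6-phosphatase G6pc, the last step of glucose release, stood at 8.73, 10.28, 9.75 and 9.34, a spread of more than log2 1 within the wild type controls. Glycogen phosphorylase of liver (Pygl) held 96.2% ± 0.63 of its family at 8.82, and glycogen synthase of liver (Gys2) 97.1% ± 1.1 at 6.86.

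**Figure D3:**
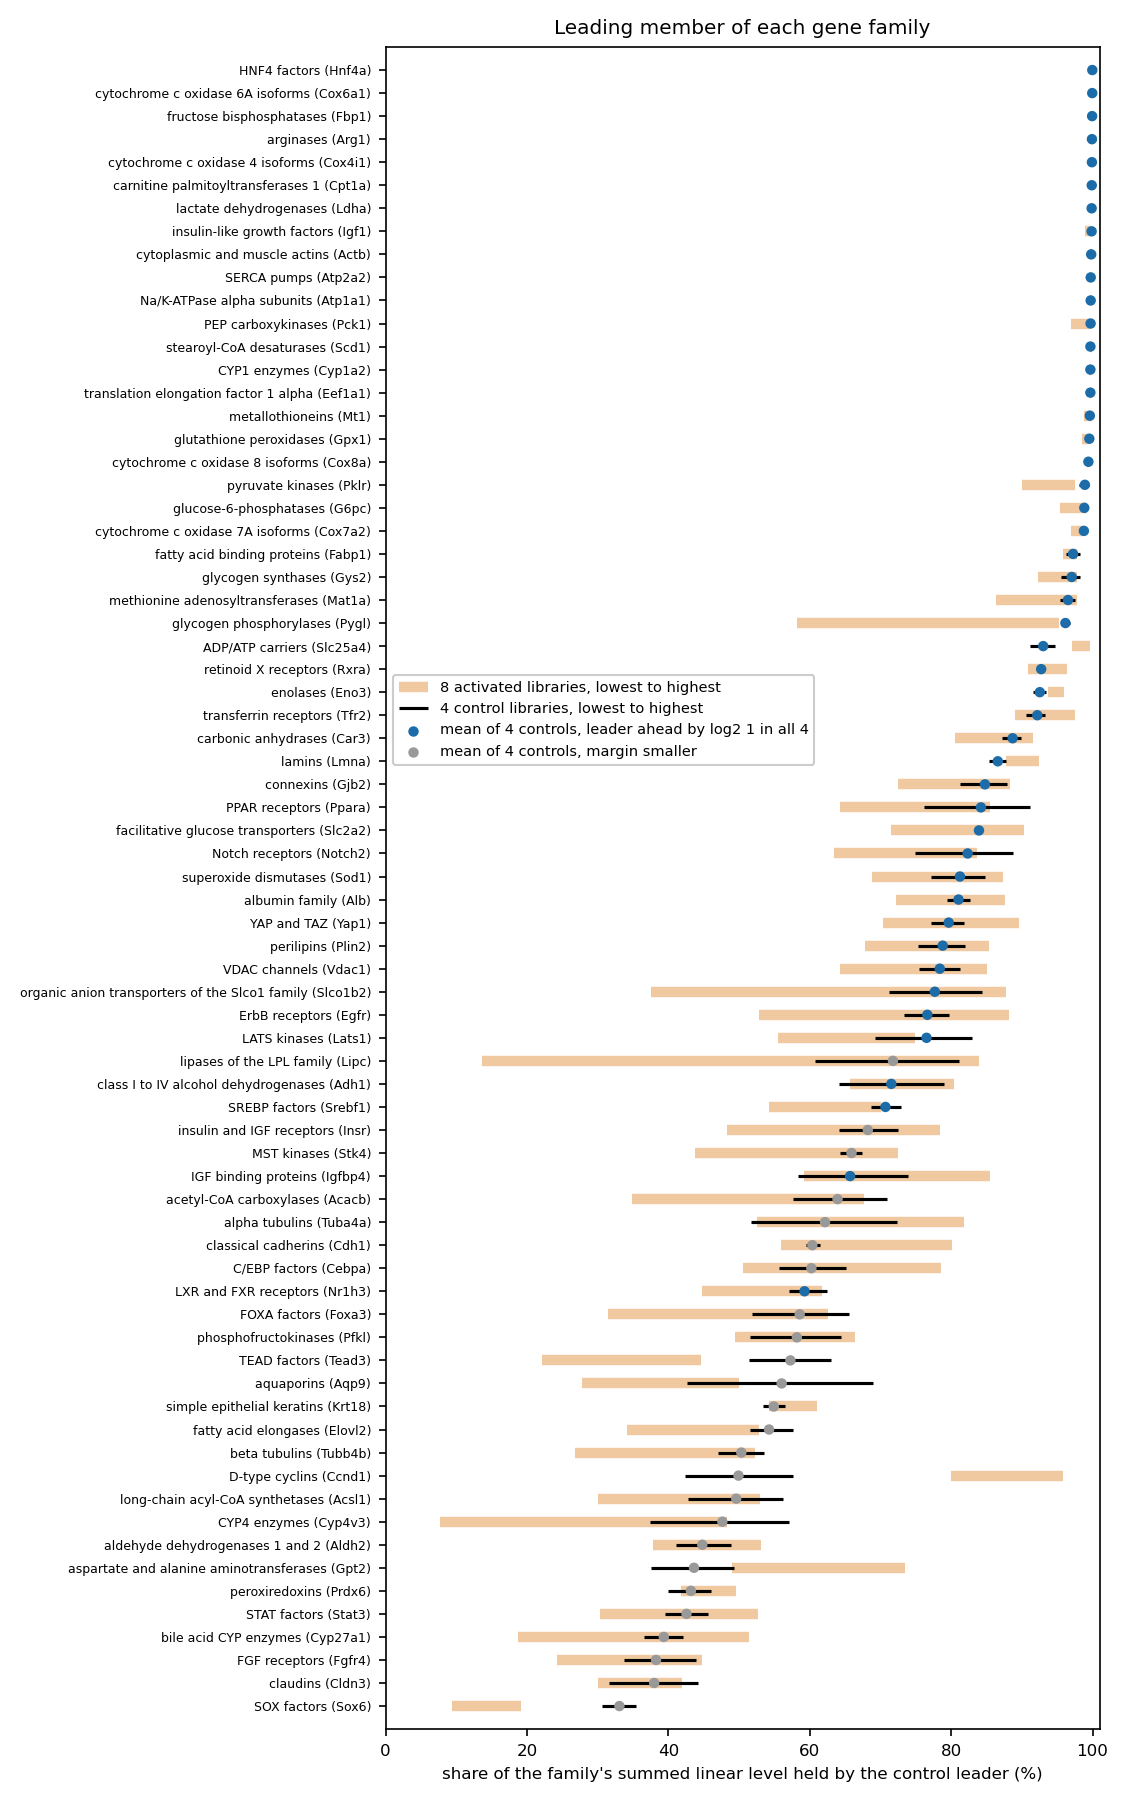
Share of the summed linear level of each family held by its leader in the controls (in brackets), in percent, for 72 of the 78 families with a detected leader. Points are means of the 4 control libraries, black lines run from the lowest to the highest control library, and pale bars cover the 8 activated libraries. The upper families stay above 90% in the controls, while the leader of the SOX factors holds 33.1%.

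Amino acid and nitrogen enzymes were split as sharply. All 10 measured genes of the urea cycle and ammonia handling were detected. Cps1, which starts the urea cycle, stood at 11.09, 12.39, 11.81 and 11.63. Arginase 1 (Arg1), the last step, stood at 9.93, 10.05, 10.36 and 9.65, and the kidney form Arg2 at -0.66, 0.04, -0.24 and -0.36. The methionine adenosyltransferase of adult liver, Mat1a, stood at 10.99, and Mat2a, the form of growing cells, at 6.13. All 22 measured enzymes of amino acid breakdown were detected, from Tat (tyrosine) at 11.18 to Prodh (proline) at 7.29.

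Lipid enzymes showed both clear and unclear leaders. Fatty acid oxidation was detected in 22 of 22 genes, down to its lowest member Eci1 at 6.73. The mitochondrial gatekeeper Cpt1a stood at 8.76 and Cpt1c, the brain form, at -1.07. The fatty acid carrier Fabp1 stood at 10.99 and the gut form Fabp2 at 5.71. Stearoyl-CoA desaturase 1 (Scd1), which makes monounsaturated fat, led its family in every library over Scd2 (2.62), although its own level was the second most variable of the well expressed genes. The acyl-CoA synthetases, which activate long-chain fatty acids, had no steady leader. Acsl1 stood at 9.64, 9.09, 9.54 and 9.19 and Acsl5 at 8.95, 8.85, 8.62 and 9.21, and Acsl5 was the higher only in floxed control 2.

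Drug-metabolising genes were broad rather than led by a single member. Of 46 measured CYP genes of families 1 to 3, 33 were detected and 5 were near zero, and together they held 2.14% of the sum. The highest was the ethanol-inducible Cyp2e1 at 11.71, 11.26, 12.33 and 10.53. Cyp2c29 followed at 11.40, Cyp3a11 at 11.03 and Cyp2f2 at 10.38, the last of these being the steadiest with an SD of 0.06. In the CYP1 family Cyp1a2 stood at 10.89, 8.94, 10.42 and 9.29, and Cyp1a1, which needs induction by aryl hydrocarbons, at 1.19. The lowest member was Cyp2c66 at -2.08. Members of the Cyp2c group are similar in sequence, so their separate levels are less certain.

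Conjugating enzymes were uneven. Of 18 measured glutathione S-transferases 16 were detected, with Gstm1 at 12.02 and Mgst1 at 11.23. All 10 measured UDP-glucuronosyltransferases were detected, with Ugt2b5 at 10.34 and Ugt2b36 at 9.67. Sulfotransferases were detected in 6 of 13 and near zero in 6, among them Sult2a1 at -1.19 and Sult2a3 at -2.02. Glutathione peroxidase 1 (Gpx1) stood at 11.66 and the plasma form Gpx3, made chiefly in kidney, at 2.57. The iron hormone hepcidin (Hamp) stood at 10.42, 9.77, 10.45 and 9.75.

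Bile acid genes were all detected, 21 of 21. Cyp27a1, which starts the alternative route of bile acid synthesis, stood at 7.90, and Cyp7a1, the rate-limiting enzyme of the classic route, at 7.07. The export pump Abcb11 stood at 9.41 ± 0.21. In the basolateral uptake family Slco1b2 stood at 7.59 and Slco1a1 at 5.29.

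Receptors and channels had liver profiles too. The iron sensor Tfr2 stood at 9.21 ± 0.32, above Tfrc, the general transferrin receptor, at 5.63 ± 0.07. Egfr stood at 8.90 and Erbb3 at 7.15. Igf1, the growth factor that liver releases into blood, stood at 9.28 ± 0.31, and Igf2, its fetal relative, at -0.32 ± 0.07. Gjb2 stood at 8.47 and Gjb1, the other hepatocyte connexin, at 5.90, an order that can also hold amplicon efficiency. Of 21 listed membrane receptors 19 were detected, from the scavenger receptor Lrp1 at 9.71, and Tlr4, the endotoxin receptor, was among the lowest at -0.53. Aquaporins had no steady leader, with Aqp9 at 8.76, 8.64, 9.08 and 8.28 and Aqp8 at 7.07, 8.92, 7.94 and 8.15.

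Of the transcription factors listed, Hnf4a, a nuclear receptor that maintains hepatocyte identity, was highest at 10.04, 9.77, 9.85 and 10.02, while Hnf4g, the gut form, was near zero at -1.64. Of 36 measured nuclear receptors 32 were detected. Rxra, the shared partner of many of them, stood at 9.27 ± 0.09 and the fatty acid receptor Ppara at 7.51 ± 0.62. Vdr, the vitamin D receptor, and Pgr, the progesterone receptor, were near zero at -1.21 and -1.87. Foxa3 stood at 5.60, Foxa1 at 4.47 and Foxa2 at 3.59.

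Housekeeping systems were even across libraries. The respiratory chain was detected in 74 of 79 genes and held 1.59% of the sum (1.52% to 1.64%). Its tissue forms were separated, with Cox6a1 at 9.07 and the muscle form Cox6a2 at -2.15, and Cox4i1 at 8.39 and the lung form Cox4i2 at -1.79. Proteasome genes were detected in 34 of 36, and the thymus subunit Psmb11 was near zero at -2.13. Only 19 cytosolic ribosomal protein genes were measured, led by Rpl4 at 9.29. Eef2 stood at 10.66 and Eef1a1 at 6.33 although both are abundant elongation factors, and the part of amplicon efficiency in that gap was not tested.

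Genes of the cell cycle list held 0.020% of the sum, with 20 of 23 detected. The highest of that list was Mcm7, a subunit of the replication helicase, at 4.40. The D-type cyclins Ccnd1 and Ccnd3, outside that list, stood at 4.70 and 4.64. The proliferation marker Mki67 stood at 2.54, 4.19, 3.04 and 3.71, highest in wild type control 2. Among 19 YAP target genes 13 were detected and they held 0.042%. Wwc1 was the highest at 6.47, Cyr61 stood at 5.87 ± 0.03, and Ctgf stood at 0.58, 1.11, 0.90 and 0.73, below log2 CPM 1 in 3 of 4 libraries. YAP itself (Yap1) stood at 6.64, 6.44, 6.46 and 6.60, above its paralog Wwtr1 (TAZ) at 4.56 ± 0.12 in every library. The kinase genes Stk4 (Mst1) and Stk3 (Mst2), floxed in one control group, stood at 4.96, 4.75, 4.89 and 4.82, and at 3.94, 3.85, 4.04 and 3.78. Sox9 stood at 3.90, 3.59, 4.33 and 3.13.

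Immediate early genes, which respond within minutes to stress such as cell isolation, were present. Of 22 measured, 18 were detected, led by Zfp36 at 8.30, Jun at 7.90 ± 0.34 and Egr1 at 7.83 ± 0.32. The inducible chaperones Hspa1a and Hspa1b stood at 0.17 and 3.46, while the endoplasmic chaperone Hspa5 stood at 10.20.

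Markers of other cell types were low in the sum, with single exceptions. In bulk cells, fewer cells of a type and less RNA per cell cannot be told apart. Cholangiocyte and progenitor markers were detected in 10 of 16 and summed to 234 to 439 CPM. Spp1 (osteopontin), at 8.16, 6.78, 7.37 and 7.45, held 46.8% to 65.0% of that sum. Slc4a2 followed at 5.59 ± 0.19, and Pkhd1 at 3.62, Bicc1 at 3.24, Prom1 at 2.07 and Slc5a1 at 2.01 were also detected. The defining duct keratins Krt19 and Krt7 stood at -0.06 and -0.47, and Epcam, used in the sort, at 0.83 in every library. The deposited values of Krt7 and of Epcam were identical in all 4 libraries (SD 0), so no spread can be read from them. Endothelial markers were detected in 7 of 18, summed to 42.5 to 112 CPM and were highest for Stab1 at 2.07, 4.03, 3.02 and 3.04. Kupffer cell and macrophage markers were detected in 5 of 15 and summed to 55.4 to 127 CPM. The highest was Mpeg1, a pore-forming protein of macrophages, at 4.82, 5.32, 4.99 and 5.11, which held 31.5% to 50.9% of that sum. Clec4f, specific to Kupffer cells, stood at 0.45, 3.53, 1.79 and 2.06, lowest in wild type control 1. Stellate cell and fibroblast markers were detected in 2 of 14 and summed to 34.5 to 47.0 CPM.

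None of the 7 T and NK cell, 7 B cell, 8 neutrophil, 7 muscle, 4 germ cell and 3 pluripotency markers was detected. Ptprc, which encodes CD45, stood at 0.58 ± 0.09. Of 5 measured platelet markers only Itga2b was detected, at 1.27 ± 0.19, and 4 were near zero. In 4 other lists a gene stood far above its companions. Only 3 of 11 listed erythroid markers were measured. Alas2, the erythroid form of the first enzyme of heme synthesis, stood at 5.80, 5.94, 5.57 and 6.17. Klf1 was at 0.64 in the mean and Slc4a1, the red cell anion exchanger, at -2.15. The elastase Cela1 of pancreas stood at 4.44 ± 0.33, while the means of the 5 other pancreas markers were at most 0.53. The highest of these, Cela2a, reached 1.10 in wild type control 2. The synaptic vesicle protein Syt1 stood at 4.12 ± 0.13 while each of the 10 other neuron markers was near zero. Reln, a stellate cell marker in liver, stood at 4.38 ± 0.15. The next highest marker of that list was Dcn at 2.31, and Lrat, the retinol esterifying enzyme of stellate cells, stood at 0.34.

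**Figure D4:**
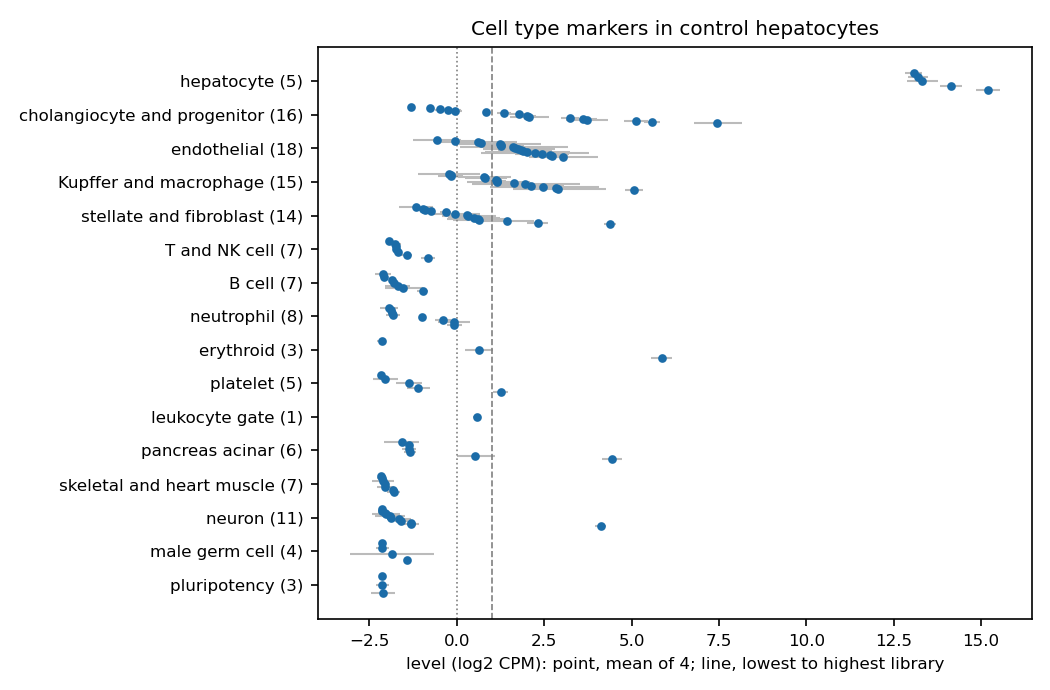
Levels of cell type markers in the controls, in log2 CPM, with a point at the mean of 4 libraries and a grey line from the lowest to the highest. The dashed line is at log2 CPM 1, the dotted line at 0, and the number of measured markers is in brackets. The 5 hepatocyte markers lie above 13, and Alas2, Cela1 and Syt1 stand apart from the rest of their lists.

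Some genes varied strongly between libraries of the same group. The median absolute difference was 0.27 between the wild type controls and 0.26 between the floxed controls. Across 10681 kept genes, which are not independent replicates, the libraries correlated with r of 0.970 and 0.982. Of 9952 genes with a mean of log2 CPM 1 or more, 528 differed by log2 1 or more between the wild type controls and 157 between the floxed controls. The widest among genes with a mean of at least 6 was Mug2, a protease inhibitor of the murinoglobulin family, at 6.50, 10.36, 8.19 and 8.61. It was lowest in wild type control 1 and highest in wild type control 2. Scd1 stood at 13.12, 10.11, 11.05 and 12.30, highest in wild type control 1. The serpin Serpina3k stood at 12.22, 9.62, 10.63 and 10.53, and the transferase Gstm3 at 6.64, 9.57, 8.30 and 7.96. Hrg, the histidine-rich plasma glycoprotein, differed most within the floxed controls, at 8.94 and 11.33. As wild type control 1 minus wild type control 2, the median log2 difference was -1.19 over 18 endothelial markers, -0.98 over 15 macrophage markers and -0.87 over 19 pericentral genes. These are medians, and single members such as Marco (1.56 against 0.05) and Cyp2e1 (11.71 against 11.26) were higher in wild type control 1. The part of other cells in these differences was not tested.

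The baseline was set against the 8 activated libraries in a limma fit of 6 group means, adjusted by Benjamini-Hochberg over 10681 kept genes. Of these, 1477 were called at an adjusted p under 0.05 (13.8%), 1318 higher in activated hepatocytes (12.3%) and 159 higher in controls (1.49%). The median change of all kept genes was 0.125. Of the calls, 89.2% were thus higher in activated cells, but 66.3% after quantile normalization (median change -0.07) and 40.5% with library medians made equal (median change -0.17), so the split follows the scaling.

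Of the 100 highest control genes 9 were called, 2 higher in activated cells and 7 higher in controls, with a median change of -0.045. These genes were chosen by their control levels, which enter the contrast, so nothing is read from their count. Transthyretin (Ttr), the thyroid hormone carrier, stood at 12.26, 11.87, 11.82 and 12.40 in the controls and from 10.40 to 11.40 (mean 10.97) in the activated libraries. These did not overlap, and the change was -1.12 (log2, activated minus control, SE 0.26, limma adjusted p = 0.0075). Its adjusted p was 0.061 without floxed control 2. Scd1 ran from 12.11 to 14.29 in activated libraries, overlapping the controls, and rose by 1.64 (SE 0.50, limma adjusted p = 0.038). Without wild type control 2 its change was 0.89 (adjusted p = 0.27). The immunoglobulin transporter Pigr rose by 0.96 (SE 0.27, limma adjusted p = 0.024), with an adjusted p of 0.165 without wild type control 1.

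The other 6 calls among these genes were higher in controls. They were Cyp2e1 (-1.59), Cyp2c29 (-1.34), Tat (-1.03), the methyltransferase Gnmt (-0.85), the Egfr inhibitor Errfi1 (-0.77) and the peroxisomal hydroxylase Phyh (-0.75), as log2 changes. The limma adjusted p-values ran from 0.029 for Cyp2e1 to 0.045 for Errfi1. Each lost its call without wild type control 2 (adjusted p from 0.071 for Cyp2e1 to 0.221 for Errfi1), and all but Phyh also without floxed control 1. Without the filter on low values every call except that of Ttr was lost (adjusted p 0.078 to 0.165), and each of these 8 was also lost without at least 1 activated library. None of the 9 changed sign under any setting tried.

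**Figure D5:**
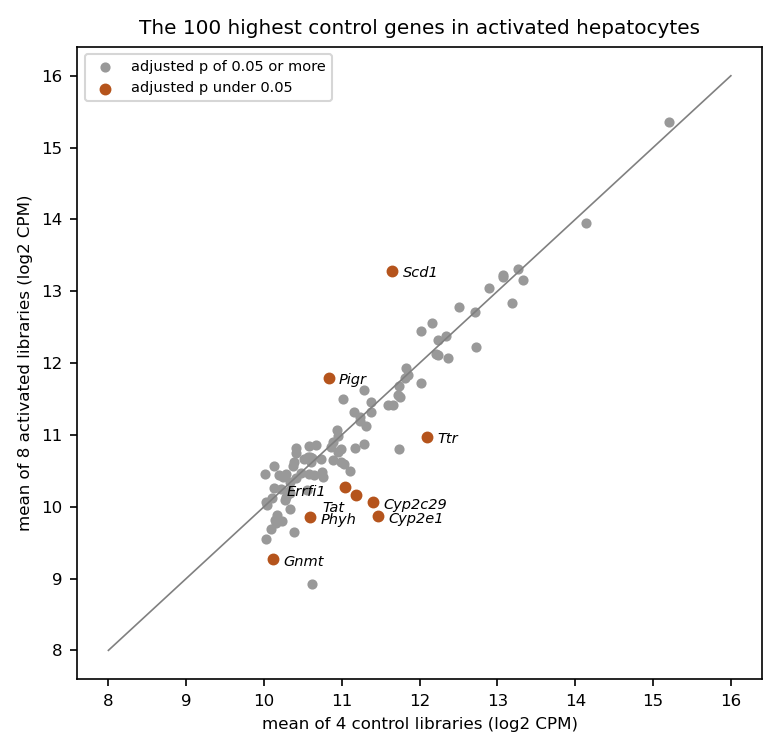
Mean of the 8 activated libraries against the mean of the 4 control libraries for the 100 highest control genes, both in log2 CPM, with a line of equality. Marked points are the 9 genes with an adjusted p under 0.05, of which Scd1 and Pigr lie above the line and 7 below it.

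Among the lists, genes of the pericentral zone, which lies around the central vein, were called higher in controls in 10 of 19, with a median change of -0.91, against 1.49% of all kept genes. The glutamate transporter Slc1a2 had the widest difference of the genes called higher in controls, at 5.98, 6.88, 6.49 and 6.35 in controls and from 0.17 to 5.26 (median 1.66) in activated libraries. Its change was -4.29 (SE 0.29, limma adjusted p = 7.4e-08). Ornithine aminotransferase (Oat), the next pericentral gene, stood at 7.60, 8.86, 8.11 and 8.32 in controls, and its change was -3.49 (SE 0.31, limma adjusted p = 1.2e-06). The count of 10 was 6 without wild type control 2 and 6 without the filter on low values.

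Apolipoproteins, fatty acid oxidation, the respiratory chain, ribosomal proteins and the proteasome had 0 calls each in limma, against 13.8% of all kept genes. At an unadjusted p under 0.05 they held 1 of 12, 1 of 22, 5 of 74, 0 of 17 and 2 of 34. These zeros depended on the scaling: with library medians made equal, 4, 2, 24, 0 and 19 were called higher in controls in the same order, and after quantile normalization 0, 0, 0, 0 and 2. In 15 of 19 YAP target genes and in 14 of 23 cell cycle genes the level was called higher in activated cells (background 12.3%). Among the YAP targets was Ctgf (change 5.53, SE 0.21, limma adjusted p = 4.3e-10). It stood at 0.58 to 1.11 in controls and passed the filter only through the activated libraries, at 4.73 to 7.84. Of the 19 YAP targets 13 and of the 23 cell cycle genes 20 were detected in all 4 controls. The others could also enter through activated libraries, so both counts are a description and not a test. The YAP target count was 10 after quantile normalization, 11 with library medians made equal and 10 without the filter on low values. The cell cycle count was 13 under each of these settings. Endothelial markers were also higher in activated cells: 15 of 17 tested were called, with a median change of 2.38. Members low in controls, such as Tek (0.60 in the mean) and Lyve1 (0.69), could pass the filter only through activated libraries. This count is thus a description and not a test. The sum of the measured endothelial markers was 156 to 579 CPM in activated libraries against 42.5 to 112 CPM in controls. In activated libraries cholangiocyte and progenitor markers summed to 1834 to 4395 CPM, and macrophage markers to 121 to 544 CPM. The part of these cells in the changes of other genes was not tested.

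The leading family members were largely shared with activated cells. In all 51 families with a clear leader in the controls, the same gene led in all 8 activated libraries. Shares did move within that order: Pygl held 58.3% to 95.3% of the glycogen phosphorylases in activated libraries, below all 4 controls. Families without a clear leader could change it. Tead3, a DNA-binding partner of YAP, led the TEAD factors in all 4 controls with 57.3% ± 5.3, and in 0 of 8 activated libraries, where it held 22.1% to 44.6%. Sox6 held 33.1% ± 2.7 of the measured SOX factors, close to Sox5 at 4.56, and led in 0 of 8 activated libraries, where Sox4 led most often. Sox4 stood at 2.07, 1.49, 1.62 and 1.92 in controls and its change was 4.97 (SE 0.23, limma adjusted p = 1.8e-09). Ccnd1 and Ccnd3, cyclins that start division, stood at 4.70 ± 0.17 and 4.64 ± 0.25 in controls, and Ccnd1 held 80.0% to 95.9% of its family in activated libraries. These family shares were not tested between the groups.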

How the data were processed

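Sorted hepatocytes were read with the Ion AmpliSeq Transcriptome Mouse panel, per the labels' protocols. The authors deposited log2 CPM per gene, a scale the labels call RPM. The sources used here do not give the aligner, the counting tool, the build or any later adjustment. Groups came from the sample titles. Deviations from the group means lay on 1 step per gene in 10661 of 10681 kept genes, with a median step of 0.0079, larger than the 0.005 of values kept to 2 decimals in 93.0%, so the spreads may have been rescaled before deposit and are used as deposited. Ranks, means, linear sums and family shares were computed in Python 3.11.15. The comparison with activated groups used limma 3.58.1 in R 4.3.3 on all 12 libraries, with a trended prior variance, genes at log2 CPM 1 or more in at least 2 libraries and two-sided tests, checked on simulated data.

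Genes named were the 30 highest, the highest, second and low members of each family, the highest 4 and lowest 2 of each list, the 4 targeted or activated genes, up to 10 variable genes, and the largest called changes among genes with a mean of at least log2 CPM 4 in the higher set. Further members, among them Hamp, Mki67 and the genes given in a clause to complete a family or pathway, were chosen after their values were seen. The members and the lists were chosen with earlier results of these data known. RefSeq windows were found for 73 of the 100 highest genes, under 80%, so promoter properties of that set were void and are not given. Some members of the families are not reported here.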

Additional observations from a re-analysis of the deposited data

How the results depend on the processing

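The count of detected genes was 10578 at log2 CPM 0 and 8710 at log2 CPM 2, against 9659 at 1, and 9693 to 9733 with a control library left out. The share of the 100 highest genes was 36.5% to 36.7% with a control library left out, 36.0% after quantile normalization and 36.4% with deviations returned to a step of 0.005, a setting chosen after seeing the data. With other summaries, 95 to 99 of the 100 highest genes remained. Families with a clear leader numbered 38 at a margin of log2 2, 70 at a margin of 0, and 51 to 54 with a control library left out.

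Genes called against activated groups numbered 978 (without floxed control 1) to 1954 with a library left out, and the group's remaining library was then assumed to vary like the others. The count was 985 without a filter on low values and 3835 with the step of 0.005. Calls among the 100 highest genes numbered 2 to 11 with a library left out, 1 without the filter, 14 with library medians made equal and 35 with the step of 0.005. Fewest remained without wild type control 2 or floxed control 1, 2 in each. Of 19 genes named for a change, 10 lost the call without some library, 9 under another setting, and 0 changed sign. With the replicate number as a block, 1322 genes were called, 8 of them among the 100 highest. Pairing was not shown: same-numbered libraries of the wild type control and the YAP groups deviated with r of -0.12, -0.06 and -0.10. In the Mst experiment the first and the second libraries have equal means gene by gene (median difference 0.0051, against 0.168 in the YAP experiment), so its r of -0.52, -0.31 and -0.64 cannot tell whether a shared replicate effect was present before deposit. The main fit took no account of these equal means, so its p-values may be too small. The cause of these dependences was not tested. Without read depth, counting error could not be given.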

Other observations

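Beyond the lists, several of the 100 highest genes of the controls belonged to antigen presentation and protein folding. B2m, the light chain of class I molecules, stood at 11.23 ± 0.18 log2 CPM, H2-K1 at 10.94 ± 0.07 and H2-Q10, a secreted class I chain of mouse liver, at 10.88 in the mean. The folding proteins P4hb and Calr stood at 10.41 each. The carboxylesterase Ces1c stood at 11.59 ± 0.21, urate oxidase (Uox) at 10.55 ± 0.12 and catalase (Cat), which removes the hydrogen peroxide made by Uox, at 10.24. These genes were named after their values were seen.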
